A study of Homo sapiens with 5 samples.

Results

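Intron peaks are the sites in an RNA pull-down whose highest point, the summit, fell inside a gene but outside every annotated exon. They were chosen by position alone: a summit had to lie within a transcript of the GENCODE basic set on hg19 (GRCh37), in no exon of any annotated transcript, and outside the gene of the bait RNA, SNHG5. In the list for the Odd oligonucleotide pool 334 of 905 peaks met this rule, a share of 36.9% (95% Wilson interval 33.8 to 40.1). In the list for the Even pool 4077 of 8626 peaks did. Most values below compare the Odd list with an equally long part of the Even list, the 905 peaks with the smallest p, of which 345 lay in introns (38.1%, 35.0 to 41.3). Over both full lists these were 4411 of 9531 peaks.

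All libraries came from HCT-116, a human colorectal carcinoma cell line, whose cells had been cross-linked with glutaraldehyde before SNHG5 was pulled down with biotinylated antisense DNA oligonucleotides. The oligonucleotides were split into 2 pools that tile the same transcript, so that each pool serves as a check on the other. The Odd list was called on 2 ODD libraries pooled and the Even list on 1 EVEN library, both against the same 2 pooled control libraries, which carry the label INPUT although the methods describe this reference as the pool against luciferase. No list gives a value per library, so no difference below has a replicate error or a test, and intervals cover counting error only.

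Introns are the parts of a primary transcript that the spliceosome removes, and in a finished mRNA they are absent. RNA from an intron can be part of an unspliced transcript or an excised intron. An antisense oligonucleotide pairs with any RNA that carries the same letters as its target, so a stretch of an intron that is identical to SNHG5 on the strand of the host gene is one that the oligonucleotides can pair with, whereas a stretch complementary to SNHG5 is one that SNHG5 itself can pair with. The study's methods left such peaks out and named the peak shift, the step by which MACS moves tags toward the middle of a fragment, as their likely source.

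Around the intron summits the same short pieces of SNHG5 recurred, and they are shown here because most of what follows refers to them. Positions are counted from 1 at the 5′ end of the 411-nt stretch of SNHG5 that the oligonucleotides target, and capitals mark the piece that recurred, read on the host strand in at least 10% of the intron peaks of a list. The pieces were picked from these peaks, so their counts are a description. The segments of the oligonucleotides follow the study's list and probe map.
SNHG5, 269 to 298, recurrent in the Odd list: gcccattGATAGAGGCCAGATTgtcttgga
SNHG5, 50 to 79, recurrent in the Odd list: cgctgtcttcAGTGGCACAGtggagcagct
SNHG5, 24 to 53, recurrent in the Even list: gtctgggcGGGTGGTAGGAACaatggcgct
The first piece, positions 276 to 290, overlaps the target of oligonucleotide 15 (280 to 298), which the probe map marks as Even, and that of oligonucleotide 13 (261 to 280), which it leaves unmarked. The second, 60 to 69, lies within the target of oligonucleotide 3 of the Odd pool (52 to 71). The third, 32 to 44, lies within the target of oligonucleotide 2 of the Even pool (29 to 48).

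In the Odd list 5 of the intron peaks below carried the first piece, and the last 2 carried a run inside the target of oligonucleotide 3 that covers only part of the second. Each line gives 30 nt on the strand of the host gene, 5′ to 3′, with coordinates on GRCh37 and the longest run identical to SNHG5 in capitals. The hosts are among those with the smallest p, the longest match or the most peaks. All the lines shown carry such a run, and they do not stand for all strong peaks. TBC1D19 and TMEM242, among the 10 with the smallest p, had no run of 10 nt on either strand.
FAM193B, chr5:176969255-176969284, minus strand: ctggtaagTGATAGAGGCCAGgattaatgc
EIF5B, chr2:99984551-99984580, plus strand: cattatgaTGATAGAGGCCAGAccgtaaga
CYTH1, chr17:76756403-76756432, minus strand: gctatttgGATAGAGGCCAGAattaaaaca
NEMF, chr14:50254668-50254697, minus strand: ggcttaaaATAGAGGCCAGATaaaaaattt
BABAM2, chr2:28274953-28274982, plus strand: gaccagaATAGAGGCCAGATTGTtggtgtt
BABAM2, chr2:28541656-28541685, plus strand: aatctgaCTGTCTTCAGTGGCAtggtttga
ARHGAP1, chr11:46709963-46709992, minus strand: ctgtccCTGTCTTCAGTGGCACAcccttgc
The first 5 lines share ATAGAGGCCAG and the last 2 share CTGTCTTCAGTGGCA. The hosts have different roles. EIF5B is a translation initiation factor that joins the ribosomal subunits, CYTH1 an exchange factor for ARF GTPases, NEMF a component of ribosome-associated quality control, BABAM2 a member of the BRCA1-A complex, and ARHGAP1 a GTPase-activating protein.

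The Even lines show 5 hosts with the third piece on the host strand, ABL2 with another run and HEATR9 with the third piece on the other strand. They were chosen after their values were seen. They do not stand for all strong peaks: ENTPD2, which has the smallest p, had no run of 10 nt on either strand.
EHBP1L1, chr11:65355802-65355831, plus strand: gtggctcaGGGTGGTAGGAACAttgaggct
MACF1, chr1:39618740-39618769, plus strand: ctgttcttGCGGGTGGTAGGAAgctgttga
OSBP, chr11:59379394-59379423, minus strand: gcataaccaGCGGGTGGTAGGgaaatgaca
DYNC1LI1, chr3:32578162-32578191, minus strand: tttattggtGGGTGGTAGGAcaaggtcagt
GBF1, chr10:104102375-104102404, plus strand: aggagtggGGGTGGTAGGAACtgagtaggc
ABL2, chr1:179133603-179133632, minus strand: tgttttTCTGAAGATGCAAAGATcttggaa
HEATR9, chr17:34190568-34190597, minus strand: attataTGTTCCTACCACCCGCCtcttaaa
In the first 5 hosts the capitals share GGGTGGTAGG on the host strand. ABL2, a tyrosine kinase of the ABL family, matched 17 nt from position 79, which overlap the target of oligonucleotide 4 of the Even pool (80 to 99). HEATR9 differed from the rest in strand: its 17 capitals are complementary to SNHG5 from position 29 on and span the third piece. MACF1 cross-links actin and microtubules, DYNC1LI1 is a light intermediate chain of cytoplasmic dynein, GBF1 is a Golgi exchange factor for ARF GTPases, and OSBP carries oxysterols between membranes.

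Counted over all members whose sequence could be read, 286 of 333 Odd intron peaks (85.9%, 81.7 to 89.2) had a run of at least 10 nt identical to the targeted stretch of SNHG5 within 250 bp of the summit, on either strand. In the whole Odd list 76.1% of peaks did, in exon peaks 67.8%, and in the 42 peaks between genes 92.9%, more than in introns. Among the best Even peaks 270 of 343 intron peaks (78.7%, 74.1 to 82.7) had such a run. There the shares were 66.9% of the whole set, 57.65% of exon peaks and 65.85% of the 41 peaks between genes. The same length of sequence tiled over all introns of the reference held one in 35.4% of 2937788 windows. At a run of at least 12 nt the shares were 52.55% of Odd intron peaks, 42.6% of Even intron peaks and 2.86% of the tiled windows. Between genes they were 69.05% of Odd and 17.1% of Even peaks. The match is a description of the sequence, and base pairing itself was not measured.

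The matches lay mostly on the strand that the oligonucleotides can pair with. In Odd intron peaks 79.6% had a run of at least 10 nt identical to SNHG5 on the host strand and 19.2% a complementary one, and at 14 nt or more the numbers of peaks were 56 and 1. In Even intron peaks the shares at 10 nt were 68.5% and 23.0%, and at 14 nt the numbers were 45 and 5. No run of 10 nt on either strand was found in 47 Odd and 73 Even intron peaks. These had median fold enrichments of 40.6 and 57.8.

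**Figure D1:**
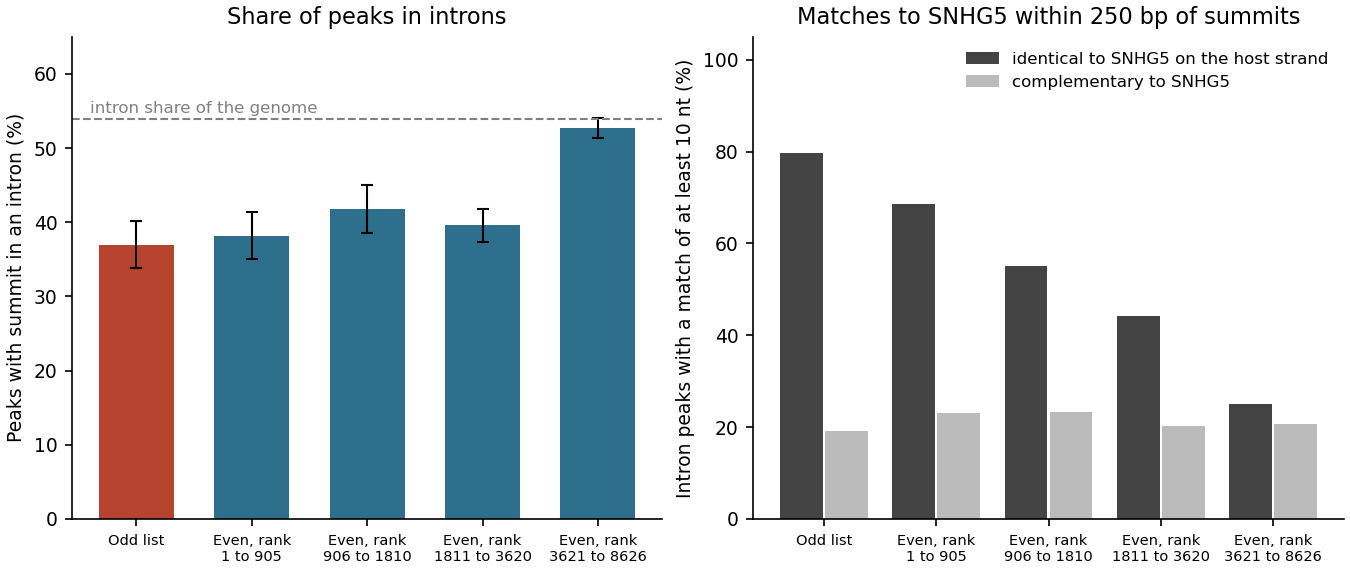
Left, share of peaks with their summit in an intron (%) in the Odd list and in the Even list cut by rank of p, with 95% Wilson intervals, and the intron share of all reference bases as a dashed line. Right, share of these intron peaks (%) with a run of at least 10 nt identical (dark) or complementary (light) to SNHG5; the identical matches fall from 68.5% to 24.9% down the Even list while the complementary ones stay between 20.3% and 23.3%.

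Going down the Even list by p, intron peaks became weaker and poorer in host-strand matches, and their share was highest in the last set. At ranks 1 to 905 the introns took 38.1% of peaks, with a median pileup (stacked tags at the summit) of 73 and a host-strand match in 68.5%. At ranks 906 to 1810 the values were 41.8%, 24 and 55.0%, and at ranks 1811 to 3620 they were 39.6%, 12 and 44.2%. At ranks 3621 to 8626 introns took 52.7% of peaks, the median pileup was 6 and 24.9% had a host-strand match. Complementary matches were found in 23.0%, 23.3%, 20.3% and 20.6% of the 4 sets. Introns as defined here make up 53.9% of the reference bases, so the share of intron peaks in the last set was close to that of the sequence.

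Within SNHG5 the matches were concentrated. A piece was counted where a peak held at least 10 nt of it in a row, and in tiled windows on either strand, as a sum over its start positions that is an upper bound. The piece at 276 to 290 was found on the host strand in 148 of 333 Odd intron peaks (44.4%) and complementary in 11 (3.30%). In Even intron peaks it stood on the host strand in 9.62%, and in tiled windows in 0.860% at most. In Odd exon peaks it was read as identical in 9.18% and as complementary in 7.14%. Exon peaks with no host intron at the summit were read on the plus strand, which need not be that of their gene. The piece at 60 to 69 was found in 34 Odd intron peaks (10.2%), in 2 Even ones (0.583%) and in 0.259% of tiled windows, and complementary in 0 of the Odd ones. The piece at 32 to 44 was found in 102 of 343 Even intron peaks (29.7%) and in 3 Odd intron peaks (0.901%). In Even exon peaks it was read as identical in 4.21% and as complementary in 2.00%. In tiled windows it stood in 0.412% at most.

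Counted by oligonucleotide, with the whole run inside the target and on the host strand, Odd intron peaks matched oligonucleotide 15 in 25.5%, oligonucleotide 3 in 12.9%, oligonucleotide 18 in 6.31%, oligonucleotide 12 in 5.71% and oligonucleotide 14 in 5.41%. Of these, 3 and 14 are marked as Odd and 12, 15 and 18 as Even. Even intron peaks matched oligonucleotide 2 in 36.4%, 15 in 6.71%, 9 in 5.54%, and 4 and 10 in 4.665% each. Here only 9 is marked as Odd. Odd exon peaks matched 15, 3, 18, 12 and 14 in 3.88%, 6.12%, 4.08%, 5.71% and 5.51%. Tiled windows did so, on either strand, in 1.46%, 3.41%, 3.04%, 2.24% and 0.263% at most. Even exon peaks matched 2, 15, 9, 4 and 10 in 5.77%, 0.887%, 2.66%, 1.55% and 3.99%. Thus 12 and 14 in Odd were matched about as often in exon peaks, and 10 in Even nearly as often. Exon shares can miss matches on the gene's strand, since exon peaks with no host intron were read on the plus strand. Complementary runs in exon peaks stood at 4.08%, 3.27%, 2.04%, 2.245% and 1.84% for 15, 3, 18, 12 and 14 in Odd. For 2, 15, 9, 4 and 10 in Even they stood at 3.77%, 2.22%, 3.77%, 1.11% and 2.88%. In intron peaks they stood at 0% for 18 in Odd and 0.875% for 9 in Even. Targets of both pools were thus matched in both lists, and the Odd list matched an oligonucleotide marked Even most often. The marks were read from a page image of the probe map, and 4 of the 20 oligonucleotides as read differed from the transcript by 1 to 3 letters, so their pools rest on that reading. The map also marks an Odd segment just 3′ of oligonucleotide 15 that no listed oligonucleotide has, and the methods name more oligonucleotides per pool than the list holds, so the pool behind the most matched piece is uncertain.

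Host-strand matches sat next to the summits. In the 167 Odd intron peaks with a host-strand run of at least 12 nt, the middle of the run lay a median of 31.5 nt on the 5′ side of the summit (quartiles -63 to 2.5), and 93.4% lay within 100 bp. In the 131 Even ones the median was 26.5 nt on the 5′ side and 88.55% lay within 100 bp. The run was 5′ of the summit in 123 and 3′ in 44 Odd peaks, and in 97 and 34 Even peaks. Complementary runs, here of at least 10 nt, were spread more widely, with 46.9% of 64 Odd and 54.4% of 79 Even runs within 100 bp. The 2 strands were not compared at the same length, and shorter runs are more common in any intron sequence. At 12 nt only 9 Odd and 16 Even intron peaks had a complementary run.

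Intron peaks had lower pileups and higher fold enrichments than exon peaks in both lists. The pileup is in tags, and MACS multiplied the Even tags by 2.03 to bring them to the control's depth. Of the 150214135 Odd tags and 55933565 Even tags, 3.27% and 3.51% were left once MACS had removed duplicates. In the Odd list the median pileup was 51 in introns (quartiles 32 to 84.5) and 106 in exons, and the median fold enrichment, the ratio of pileup to local control background, was 47.95 (25.5 to 76.2) against 11.9. Among the best Even peaks the medians were 73 (48 to 137) and 156 for pileup, and 71.05 (38.5 to 123.2) and 15.7 for fold. Peaks between genes had medians near those in introns, with folds of 56.4 in 42 Odd and 58.8 in 41 Even peaks. The quartile ranges of fold in introns and exons did not overlap in the Odd list or among the best Even peaks. The full ranges did: Odd intron folds ran from 1.63 to 351.4 and Odd exon folds from 2.03 to 647.9. In the full Even list the quartile ranges also overlapped, at 9.47 to 16.8 in introns and 4.06 to 12.3 in exons.

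The high folds came with a low control background. The background that MACS set under a peak was a median of 1.23 tags in Odd introns and 8.61 in Odd exons, and 0.986 in Even introns against 9.98 in Even exons. In 87 of 334 Odd intron peaks (26.05%) and 89 of 345 Even ones (25.8%) it stood within 3% of its lower limit, the average of the control over the genome. In exon peaks 2.65% and 3.33% did. In 62.3% of Odd and 59.1% of Even intron peaks the background was at most the weight of 1 control tag, within 3%. That weight was 1.23 for Odd and 1 for Even. The background is a local average, so it is not a count of the control tags near a peak. Only at the lower limit itself is a fold set by the tags of the pull-down alone. Over all intron peaks the pull-down tags were a median of 51 in Odd and, with the scaling removed, 36 in Even. The fewest were 20 and 14.8.

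**Figure D2:**
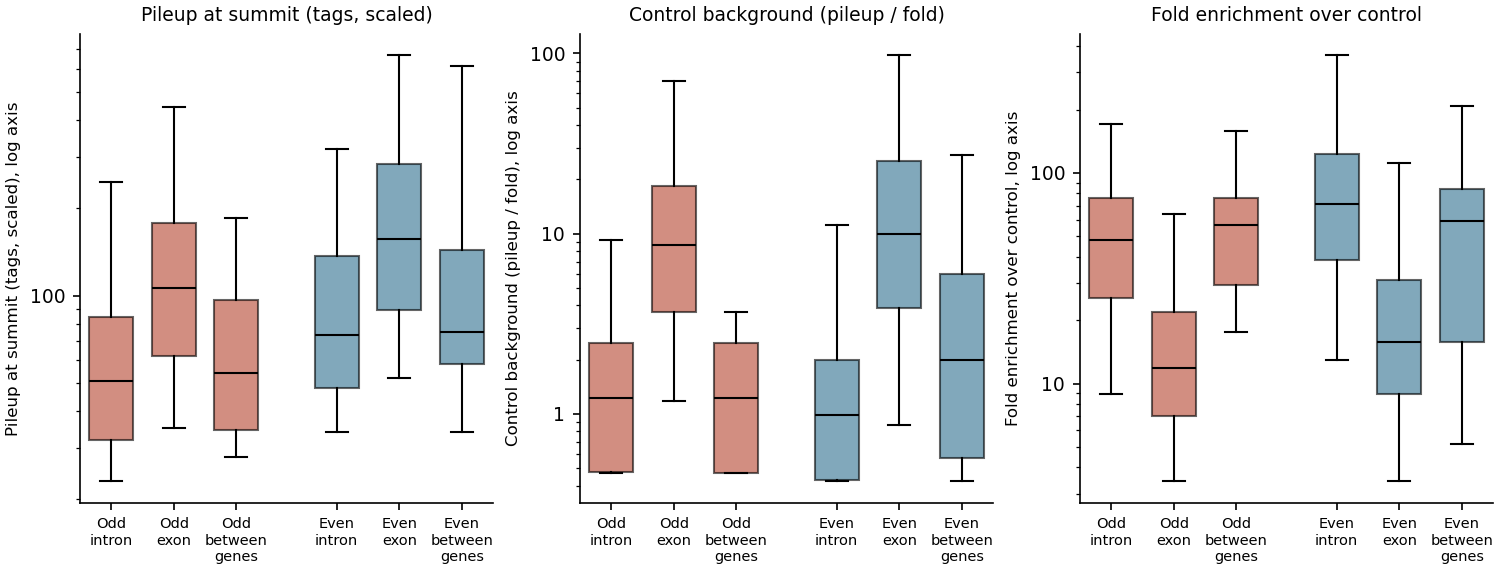
Pileup at the summit (scaled tags), control background (pileup divided by fold) and fold enrichment, all on log axes, for peaks in introns, exons and between genes in the Odd list (red) and the 905 best Even peaks (blue). Boxes are quartiles with the median, and whiskers run from the 5th to the 95th percentile; intron peaks have lower pileups than exon peaks, a background near 1, and higher folds.

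The intron peaks with the smallest p in the Odd list lay in genes of many kinds. FAM193B had a pileup of 385 and a fold of 156.4. In EIF5B the pileup was 341 and the fold 88.8, and in PTK2, the focal adhesion kinase, they were 388 and 105.1. CYFIP1, a subunit of the WAVE complex that drives actin branching, had 256 and 208.0, TIMMDC1, an assembly factor of mitochondrial complex I, had 246 and 199.9, and TBC1D19 had 264 and 206.3. DCBLD2 and TMEM242 had pileups of 598 and 542 over a higher background, with folds of 27.0 and 16.3. Both remaining peaks among the 10 with the smallest p, in RP11-353N4.8 and AL592284.1, had folds of 41.8 and 41.3, and 100% and 91.2% of their 48-mers occurred elsewhere in the reference, so tags cannot be placed there with certainty.

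In the Even list the 10 with the smallest p had higher folds. ARHGAP18, a GTPase-activating protein, had a pileup of 472 and a fold of 651.7, ABL2 365 and 699.3, HEATR9 409 and 543.3, and STRN3, a striatin of PP2A complexes, 588 and 405.6. MACF1 had a pileup of 334 and a fold of 334.6, SYT1, the calcium sensor of synaptic vesicles, 582 and 291.0, DYNC1LI1 478 and 275.1, and OSBP 356 and 227.9. EHBP1L1 and ENTPD2, an ectonucleotidase, had pileups of 551 and 1011 and the lowest folds of the 10, 104.5 and 112.4. None of these 10 was overlapped by a peak of the Odd list, which is near the share of 13.9% over all best Even intron peaks. The Odd peaks above, other than those in CYFIP1, TIMMDC1 and TBC1D19, each met one of the best Even peaks. Over all Odd intron peaks 14.4% did.

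Intron summits were set against the nearest exon and against the length over which MACS moves tags. The part of the peak shift in placing these peaks was not tested. The median distance from summit to nearest exon was 2431.5 bp in the Odd list (quartiles 692.8 to 6515.5) and 2185 bp in the Even list (501 to 6187). The shortest was 1 bp in both, in DPH6, an enzyme of diphthamide synthesis, for Odd and in EXOC4, a subunit of the exocyst, for Even. The farthest were 139913 bp in FHIT, a diadenosine triphosphate hydrolase, for Odd and 111446 bp in IMMP2L, a mitochondrial inner membrane peptidase, for Even. The fragment length d that MACS used was 260 bp for Odd and 290 bp for Even. Within 1 d of an exon lay 50 of 334 Odd summits (14.97%, 11.5 to 19.2) and 67 of 345 Even summits (19.4%, 15.6 to 23.9). Within 130 bp for Odd and 145 bp for Even, the distances by which tags are shifted, lay 9.28% and 13.04%.

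Intron bases as a whole lie farther out than the summits did. Over all intron bases of the annotation the median distance to an exon was 3765 bp (quartiles 1080 to 11306), with 8.30% within 260 bp and 9.11% within 290 bp. Over 10 kb from an exon lay 15.6% of Odd and 15.9% of Even summits and 27.6% of intron bases. The exon-free stretch around a summit had a median length of 12216 bp in the Odd list and 13065 bp in the Even list, against 19609 bp over all intron bases. A peak itself reached into an exon in 45 Odd (13.5%, 10.2 to 17.55) and 83 Even cases (24.1%, 19.85 to 28.8), and Even intron peaks were the wider ones, with median widths of 794 bp against 536.5 bp. With all Even peaks in place of the best ones 16.9% reached an exon.

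The hosts were 305 genes in the Odd list and 323 in the Even list. A protein-coding gene held 300 of the 334 Odd and 306 of the 345 Even summits, and a lncRNA gene 29 and 37. The first intron held 27.8% and 32.2%. The median gene length of the hosts was 112326.5 bp in the Odd list and 121653 bp in the Even list. Genes on both strands covered 20 Odd and 24 Even summits, where the strand of the RNA cannot be told. A host gene also had an exon peak in 20 cases in the Odd list (6.56% of its hosts) and 15 in the Even list (4.64%). More than 1 intron peak was found in 25 Odd and 18 Even hosts. Among the Even ones ASMTL counts through a peak on X and its counterpart on Y, with the same pileup (44) and fold (104.2). Both lists shared 59 hosts, 19.3% of the Odd and 18.3% of the Even ones, and with all Even peaks in use 205 of the Odd hosts (67.2%) recurred.

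In the Odd list and in the best Even peaks no host had more intron peaks than ZNF652, with 4 in each, a zinc finger gene on chromosome 17. Its strongest peak held a run of 123 nt identical to SNHG5 from position 230 on. There the pileup was 1501 for Odd and 1938 for Even, the highest of any intron peak in either set, and the control background was 920.9 and 748.3, which left folds of 1.63 and 2.59, the lowest of the intron peaks in both sets. In the full Even list the lowest was 1.2, and a host had up to 17 intron peaks. The other Odd peaks of ZNF652 had pileups of 29, 36 and 47 with folds of 29.2, 29.3 and 19.1, and the other Even ones 38, 40 and 58 with folds of 73.8, 46.6 and 67.6. CYTH1 had 3 Odd peaks with pileups of 150, 129 and 26, and NEMF 3 with 190, 47 and 33. In the Even list FCGBP, which encodes a mucus protein, and GBF1 had 3 each. The FCGBP peaks consisted mostly of sequence with copies elsewhere (62.3% to 82.6% of 48-mers).

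Few genes of the lists that were looked up were hosts in the Odd list or in the best part of the Even list. Of all 19038 protein-coding genes with an intron, 289 (1.52%) were hosts in the Odd list and 302 (1.59%) in the best part of the Even list. From 24 genes at common fragile sites, which are very long, 3 were hosts in each list (12.5%). FHIT had 2 Odd peaks, with folds of 139.8 and 184.2, and 1 of the best Even peaks, with 108.9. WWOX had 2 Odd peaks, with 103.7 and 44.5, and 1 of the best Even peaks, with 48.95. RBFOX1, a splicing regulator, had 1 Odd peak with a fold of 42.3, and IMMP2L 1 of the best Even peaks with 173.1. From 24 colorectal cancer genes only APC, the Wnt pathway scaffold, was a host, in the Odd list, with a pileup of 28 and a fold of 43.8. The Even peak that lay at the same place had rank 1688, a pileup of 16 and a fold of 28.0. With all Even peaks 14 of the 24 fragile site genes (58.3%) and 7 of the 24 colorectal cancer genes (29.2%) were hosts. Of all protein-coding genes with an intron 13.03% then were.

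From 14 snoRNA host genes, the class SNHG5 belongs to, 0 were hosts in the Odd list and 1 in the Even list, ZFAS1, with a pileup of 330 and a fold of 26.3. From 513 zinc finger genes named ZNF, ZNF652 was a host in both lists, and ZNF131, ZNF558 and ZNF704 in the best part of the Even list. With all Even peaks 2 of the 14 snoRNA host genes and 40 of the 513 zinc finger genes (7.80%) were hosts. Of 11 transcripts that the study had picked from these libraries as targets, 0 had an intron peak in the Odd list or in the best part of the Even list. With all Even peaks GLE1, an mRNA export factor, SPATS2 and WASHC3 had some, with pileups of 4 to 12, where 13.03% of all protein-coding genes did.

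Intron peaks were shared about as often as the peaks of the lists as a whole. Of 334 Odd intron peaks 48 (14.4%, 11.01 to 18.5) had an overlap with a best Even peak, against 13.1% of the whole Odd list and 10.2% of its exon peaks. Of the 345 best Even intron peaks 48 (13.9%) were overlapped by an Odd peak, against 13.3% of the set. These shares lie near the background, and both lists were called against the same control. With all Even peaks in use 150 Odd intron peaks (44.9%) were overlapped, against 39.8% of the list. The 48 shared Odd peaks lay in 44 host genes. Their summits lay a median of 29.5 bp from the Even summit, and 43 were at most 100 bp apart.

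The shared peak with the highest fold in both lists lay in ANKHD1, which encodes an ankyrin repeat protein, with a pileup of 166 and a fold of 351.4 in Odd and 62 and 146.8 in Even. FAM193B followed with 385 and 156.4 in Odd and 253 and 126.7 in Even. In EFL1, a GTPase of ribosome maturation, the folds were 171.5 and 123.2, in PCCA, a subunit of propionyl-CoA carboxylase, 220.2 and 113.7, and in the lncRNA LNC-LBCS 271.0 and 108.9. FHIT had 184.2 and 108.9, CYTH1 121.9 and 105.5, SAMD4A, an RNA-binding translational repressor, 180.0 and 104.2, and RALY, an hnRNP protein, 181.5 and 83.4. The gene ENSG00000275443 had 175.7 and 123.2. In 9 of the 48 the control background stood at its lower limit in both lists, which ANKHD1, EFL1, PCCA, LNC-LBCS, FHIT and SAMD4A illustrate with backgrounds of 0.472 in Odd and about 0.422 in Even.

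In the Odd list shared intron peaks were the strong ones, with a median pileup of 150.5 against 44 in the unshared ones and a median fold of 84.8 against 45.7. In the Even list this was not so: the medians were 71.5 and 75 for pileup and 46.7 and 75.03 for fold. Shared and unshared peaks also differed in the pieces of SNHG5 they carried. The piece at 276 to 290, on either strand, was found in 37 of 48 shared Odd peaks (77.1%) and in 122 of 285 unshared ones (42.8%). In the Even list it was found in 35 of 48 shared (72.9%) and 1 of 295 unshared peaks (0.339%). The piece at 32 to 44 was found in 0 of 48 shared and 112 of 295 unshared Even peaks (37.97%). Thus nearly all of the best Even intron peaks with the first piece were shared with the Odd list, and none with the third was. The first piece was picked because it recurred in the Odd list and the third because it recurred in the Even list. In the full Even list 158 of 4070 intron peaks held the first piece on the host strand, and their sharing was not counted. Members without a readable sequence are left out of these counts.

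Odd intron peaks with one of the first 2 pieces on either strand had a median fold of 50.9, against 38.4 without, and lay at nearly the same distance from exons, 2428 against 2426 bp. Even intron peaks with the third piece had a median fold of 90 against 64.9 and lay nearer to exons, at 1426.5 against 2607 bp. In base composition intron peaks stood close to the exon peaks of their list, with a median GC content of 41.3% against 42.7% in Odd and 45.1% against 45.7% in Even, where tiled intron windows had 39.9%. A run of 10 A or T was found in 14.7% of Odd and 11.6% of Even intron peaks and in 16.9% of tiled windows. The reference used does not mark repeats. In its place, 48-mers with an exact copy elsewhere made up at least 50% of the window in 15 of 333 Odd intron peaks (4.505%, against 5.43% of the list) and 19 of 343 Even ones (5.54%, against 5.65%), while between genes 21.4% and 26.8% of peaks were of that kind.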

How the data were processed

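The authors trimmed the reads, aligned them with STAR (genome build hg19) and ran MACS 2.0.9 on each pool against the pooled control. They reduced the Odd list with IDR, a filter on agreement between replicates, whereas the Even list, from 1 library, was deposited in full. The deposited lists give a pileup (a coverage signal), a fold enrichment (a ratio to the control), a −log10 p-value and the summit position. The lists hold no replicate values and 0 columns of other samples.

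Background was computed as pileup divided by fold. Summits were placed with GENCODE version 44, lifted to GRCh37. Peaks sharing 1 bp or more were taken as overlapping (bedtools 2.31.1), sequences were read with pysam 0.24.0, and Python 3.11.15, numpy 2.4.6, pandas 2.3.3, scipy 1.17.1, numba 0.67.0 and matplotlib 3.10.9 did the rest. The count of copies was tested on simulated data. The strand of a peak was that of its host gene, since the lists give none. Exon peaks with no host intron at the summit were read on the plus strand. In 3 intron peaks on chromosome Y (1 Odd, 2 Even) the reference holds N, so match shares use 333 and 343 peaks. Runs were sought in the 411-nt targeted stretch of a 772-nt transcript of SNHG5, in place of the whole transcript as planned, which is given as an alternative.

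Genes named are hosts of the 10 peaks with the smallest p in each list, of the 10 shared peaks with the largest smaller fold, of the peaks with the longest matches, nearest to and farthest from an exon, and with the most peaks, and members of the gene lists. The members, gene lists and comparisons were chosen with earlier results of these data known. Alternatives covered the exon set, the whole peak, the Even ranking, the number of peaks, the overlap rule, the window, the match length and sequences with copies.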

Additional observations from a re-analysis of the deposited data

How the results depend on the processing

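Of 58 recomputed values over 14 results, 36 stayed within bounds and 22 moved. The results are counts, medians and shares, which have no direction that could turn. The bounds were 1.5 times for a count, the 95% Wilson interval for a share and the 95% order-statistic interval for a median. With all Even peaks, intron peaks numbered 4077, 150 Odd intron peaks were overlapped, 205 hosts were shared, the median Even fold was 11.65, 16.9% reached an exon and 48.9% matched SNHG5. With Even peaks ranked by fold there were 583 in introns, with a median fold of 47.4, a median distance to exons of 2806 bp, a stretch of 16106 bp and 15.1% reaching an exon. With the conservative number of peaks the median Odd fold was 55.7. With the whole peak outside exons, the median distance was 2923 bp in Odd and 3574.5 bp in Even. The longest annotated intron gave median lengths of 28190.5 and 27745 bp. The share with a match was 52.55% (Odd) and 42.6% (Even) at 12 nt, 77.5% and 67.6% within 100 bp, and 94.6% and 87.5% over the whole annotated transcript, an alternative chosen after seeing the data. The cause was not tested, except that fewer letters, a smaller window or a longer transcript change the number of possible matches by construction.

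No paired analysis was possible because the lists hold no value per library, and for the same reason leaving out a library was not run. Repeat shares were not run, since the reference marks no repeats. Depth limits the folds: at the lower limit of the background a fold is the number of pull-down tags over a constant.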
